A study of Homo sapiens with 4 samples.

Results

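A set of zinc finger genes of 19q13.43, the last band of the long arm of human chromosome 19, was followed in poly(A)-selected RNA from A375 cells with and without p53. The members were 35 genes of the deposited table, chosen by name for their position in that band and with their knockout to parental ratios already known, out of 26484 rows in all. Their ratios to the parental line are therefore given as a description and without a test. A375 is a human melanoma cell line, grown here in DMEM. There were 2 parental libraries, labelled wild type for p53, and 2 libraries of p53-knockout cells made by CRISPR-Cas9 editing, numbered 2 and 8 as in the table. Whether the libraries within a group stem from separate cultures or clones is not in the labels, and no edited line that kept p53 was among them, so effects of p53 loss, of editing and of selecting edited cells cannot be told apart.

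Most genes of this band encode C2H2 zinc finger proteins, which read DNA through repeated finger domains. In the largest subfamily a KRAB domain at the N-terminus binds TRIM28, which brings in the histone methyltransferase SETDB1 and HP1 proteins and silences retroelements and other sequences. The genes arose by tandem duplication and still lie side by side. Neighbours can share promoter sequence and long stretches of transcript. A few, such as ZNF154, ZNF671, ZNF471 and ZNF667, are known for promoters that are methylated in carcinomas.

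On GRCh38, with GENCODE 29 positions, the members spanned chr19:56087366-58003349, from ZNF787 to ZNF606, with 22 genes on the plus strand and 13 on the minus strand. A stretch of 565018 bases between ZNF71 and ZNF264, which holds the imprinted genes PEG3 and ZIM2, set 7 members on the centromere side apart from 28 on the telomere side. All 35 are annotated as protein-coding. Of the 35, 31 had an upstream sequence in the RefSeq promoter table (GRCh38.p14), of which the 250 bases before the gene start were examined; ZNF471, ZNF211, ZNF552 and ZNF417 had none.

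Members on the telomere side shared a short promoter element. Among all 9-base words in these upstream sequences, searched on both strands, 2 overlapping words were held by at least 12 members. AACTACATT was held by 13 of the 31 members (41.9%) against 129 of 35116 upstream sequences in the whole table (0.367%), and ACTACATTA by 12 members (38.7%) against 47 (0.134%). AACTACATT was present in 14 of 275 upstream sequences of other ZNF genes on chromosome 19 and in 4 of 340 of ZNF genes elsewhere. For ACTACATTA these counts were 5 and 0. ACTACATTA was followed further because it was the rarer of the 2 words in the whole table. Its rarity outside the members was thus part of the choice. It occurred at 13 sites in the 12 members, in ZNF749 at a pair of sites. All 13 sites read in the direction of the gene and started between 146 and 68 bases before the gene start. The 12 members lay between ZNF17 and ZNF418, a stretch that held 18 members with an upstream sequence. The word was chosen from these sequences and not from expression, and a match is a string of letters, not evidence of binding.

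The 9 lines that follow show the word in capitals with its flanks, 5′ to 3′ on the strand of the gene, for 1 site in each of 9 members that overlaps no GENCODE exon; the second site of ZNF749, also outside exons, is not printed. They are shown because the match goes on past the 9 bases: in 12 of 13 sites the next base was C, in 13 the one after was C, and 11 of 12 members with the word carried the longer form ACTACATTACC, against 18 sequences in the whole table (0.0513%).
ZNF749: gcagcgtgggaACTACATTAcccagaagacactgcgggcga
ZNF550: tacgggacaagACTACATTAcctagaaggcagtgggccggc
ZNF416: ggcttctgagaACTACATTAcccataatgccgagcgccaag
ZNF530: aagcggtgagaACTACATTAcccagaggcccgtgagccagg
ZNF551: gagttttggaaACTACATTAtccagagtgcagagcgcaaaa
ZNF154: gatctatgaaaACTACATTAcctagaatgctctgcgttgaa
ZNF586: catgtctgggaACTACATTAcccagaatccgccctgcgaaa
ZNF814: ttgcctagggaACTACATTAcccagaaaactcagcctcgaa
ZNF418: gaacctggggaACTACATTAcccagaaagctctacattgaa
On the plus strand these windows are chr19:57435168-57435208 (ZNF749), chr19:57599779-57599819 (ZNF530), chr19:57681867-57681907 (ZNF551) and chr19:57769530-57769570 (ZNF586). On the minus strand they are chr19:57559902-57559942 (ZNF550), chr19:57578980-57579020 (ZNF416), chr19:57709296-57709336 (ZNF154), chr19:57889134-57889174 (ZNF814) and chr19:57935472-57935512 (ZNF418).

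**Figure D1:**
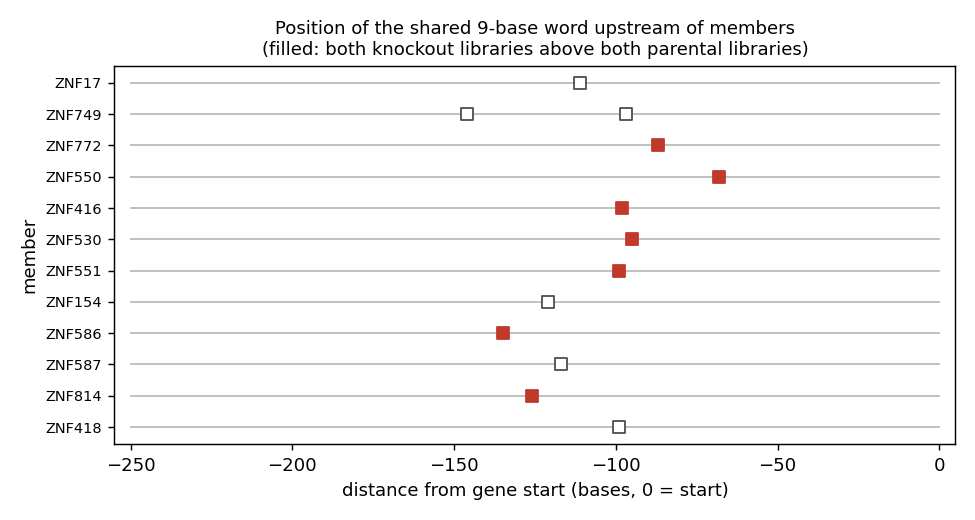
Start of the word ACTACATTA upstream of the 12 members that hold it, in bases from the gene start (x axis), 1 line per member in chromosomal order. Filled squares mark the 7 members whose value was above both parental libraries in both knockout libraries; all 13 sites lie between 146 and 68 bases before the start.

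The full upstream sequence is shown for ZNF530, a member that was higher in both knockout libraries, and for ZNF418, which was higher in only 1, with the word in capitals; neither overlaps a GENCODE exon. The ZNF530 sequence is chr19:57599635-57599884, plus strand, and that of ZNF418 is chr19:57935403-57935652, minus strand.
ZNF530: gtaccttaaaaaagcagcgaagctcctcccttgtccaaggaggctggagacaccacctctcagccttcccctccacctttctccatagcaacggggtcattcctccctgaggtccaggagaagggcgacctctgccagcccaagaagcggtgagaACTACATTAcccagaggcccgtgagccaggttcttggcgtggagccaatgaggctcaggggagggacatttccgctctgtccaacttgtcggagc
ZNF418: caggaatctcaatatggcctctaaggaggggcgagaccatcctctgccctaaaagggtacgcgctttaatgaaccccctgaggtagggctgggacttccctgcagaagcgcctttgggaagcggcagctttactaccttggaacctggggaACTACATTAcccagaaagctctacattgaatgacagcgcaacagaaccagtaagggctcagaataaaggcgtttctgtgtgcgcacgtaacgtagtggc

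Other short motifs were counted in the same windows on both strands. CGGAAGT, the core read by ETS factors, was present in 15 of the 31 members (48.4%) against 5.69% of all upstream sequences and 18.2% of those of other chromosome 19 ZNF genes. CCAAT was present in 20 members (64.5%, against 32.0% of all), the GC box GGGCGG in 16 (51.6%, against 42.6%) and TATAAA in 1 (3.23%, against 10.7%). Among other chromosome 19 ZNF genes the shares were 44.4% for CCAAT, 61.1% for GGGCGG, above that of the members, and 2.91% for TATAAA. The p53 consensus decamer, searched as a single decamer, was present in 2 members (6.45%), against 5.57% of all upstream sequences and 5.82% of those of other chromosome 19 ZNF genes. The dinucleotide CG occurred 8 to 35 times in the members' 250 bases, with a median of 17 against 11 over the whole table. ZNF667 had the largest number, 35, and ZNF530 and ZNF587 the smallest, 8.

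In the parental line 33 of the 35 members were measured, that is, reached 10 normalized counts in at least 2 of the 4 libraries; all 33 reached that level in all 4. A normalized count here is the number of reads of a gene divided by 1 factor per library, as deposited. The 33 measured members had 56 to 1994 reads in any library. Between genes, levels were compared per kilobase of exon sequence, since longer transcripts give more reads. On that scale ZNF787 was highest, at 321 normalized counts per kilobase, followed by ZNF587 at 245, ZNF586 at 146 and ZNF776 at 144, against a median of 73.5 over the measured members. ZNF586 (146 ± 0.57, SD, n = 2) and ZNF776 (144 ± 2.83) differed by less than the spread of ZNF776 between the parental libraries. ZNF550, at 142, and ZNF444, at 138, came next. ZNF583 and ZNF471 were lowest among the measured members, at 9.56 and 10.2 per kilobase.

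Both members below that level were close to 0 in every library. ZNF154 had 2, 3, 3 and 2 reads in parental 1, parental 2, knockout 2 and knockout 8, and ZNF667 had 0, 1, 0 and 0. These lie at or under a floor of 3 reads per library, so no fold is given. A member silent in the parental line, meaning under 5 normalized counts in both parental libraries, and on in a knockout library, meaning at least 20 there, was not found: 0 of 35, against 0.204% of all rows of the table. Only ZNF154 and ZNF667 were under 5 in both parental libraries, as were 37.7% of all rows. The other members could not meet this rule, so the 0 says little about them. The next lowest members in the parental libraries were ZNF547, at 65.8 and 68.4, and ZNF471, at 75.7 and 62.3, so nothing lay near that threshold.

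Most measured members had higher values in the knockout libraries. Of the 33, 21 were above both parental libraries in both knockout libraries, and 1, ZNF552, was below both in both. Over all 15431 measured genes 22.8% lay above and 23.7% below in this way, which is given as background only, because the members were chosen with this contrast in view. On the log2(normalized count + 1) scale, the members' median difference from the parental mean was 0.20 in knockout 2 and 0.25 in knockout 8, against -0.0012 and -0.00078 over all measured genes. The mean log2 ratio of the 21 members over both knockout libraries ranged from 0.09 (ZNF773) to 0.81 (ZNF530), with a median of 0.44. RNA from bulk cells cannot tell more RNA per cell from more cells that express a gene.

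**Figure D2:**
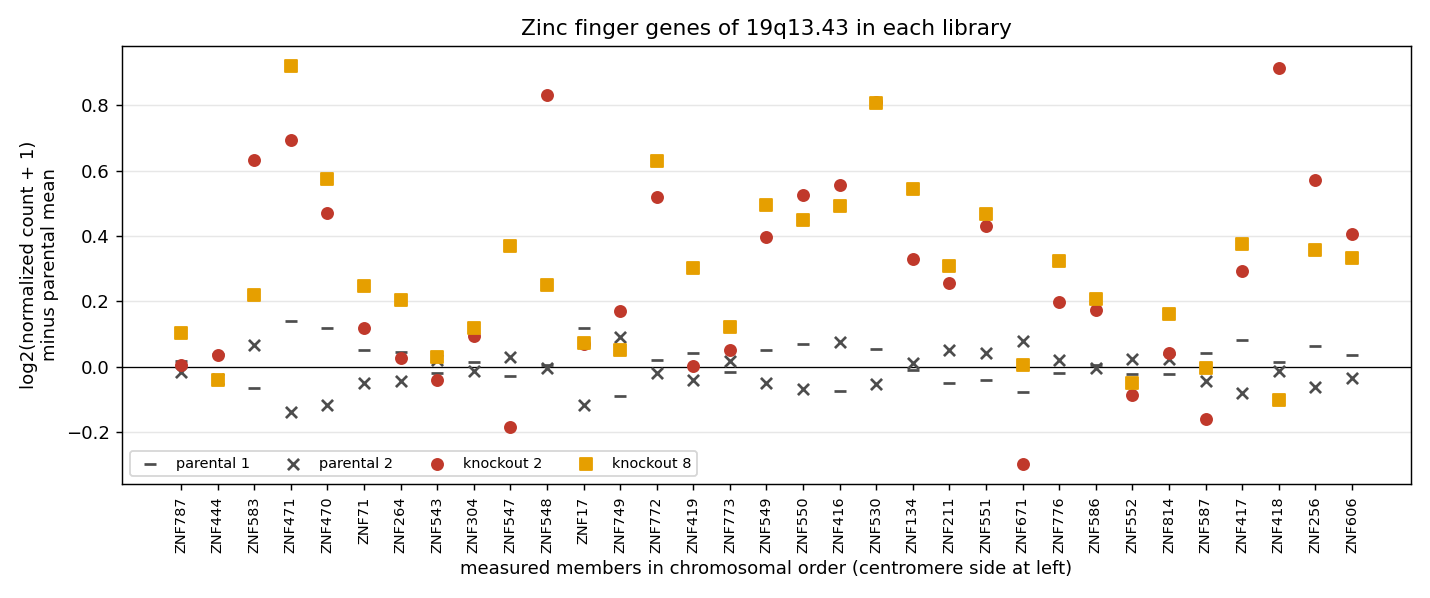
Difference of log2(normalized count + 1) from the parental mean (y axis) for the 33 measured members in chromosomal order (x axis), 1 symbol per library. The knockout symbols lie above both parental ones for 21 members, among them 8 in a row from ZNF773 to ZNF551; at ZNF530 both knockout symbols coincide.

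By limma, fitted over all 15431 measured genes with Benjamini-Hochberg adjustment, 0 of the 33 members were called at an adjusted p of 0.05, as were 0 of all genes (0%). At an unadjusted p under 0.05, 11 members were higher and 0 lower, where 5.85% of all genes were higher and 950 of the 15431 were lower. The edgeR quasi-likelihood test also called 0 members and 0 genes overall (13 members higher at an unadjusted p under 0.05, and 6.13% of all genes). DESeq2, with the same adjustment, called 1 member, ZNF530, as higher, and 2.44% of all genes in either direction (1.21% higher); at an unadjusted p under 0.05 it had 10 members and 5.25% of all genes higher. These counts rest on the contrast that was in view when the members were chosen and support nothing about them.

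ZNF530 and ZNF471 had the largest mean ratios among members whose groups did not overlap. ZNF530 stood at 203.9 and 189 normalized counts in parental 1 and 2 and at 345 and 345 in knockout 2 and 8, 1.75-fold the parental mean in both. Its knockout values differed by 0.0018 on the log2 scale, less than the 0.11 between the parental libraries. ZNF471, a gene often methylated in carcinoma, had 75.7 and 62.3 against 111.6 in knockout 2 and 131 in knockout 8, or 1.62-fold and 1.89-fold. Its parental values differed by 0.28, the largest gap between the parental libraries among the measured members in either direction.

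All values after this give both parental libraries (1, then 2) before the knockout ones (2, then 8). ZNF772 had 454 and 442 against 643 and 693. ZNF416 had 167 and 185 against 259 and 247. ZNF470 had 385 and 326 against 491 and 528. In these 3 genes the knockout values were 1.39-fold to 1.55-fold the parental mean, and the groups did not overlap. ZNF548 had 599.7 and 595 against 1064 in knockout 2 and 710.0 in knockout 8, so the groups did not overlap, but knockout 2 was 1.78-fold and knockout 8 only 1.19-fold the parental mean.

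**Figure D3:**
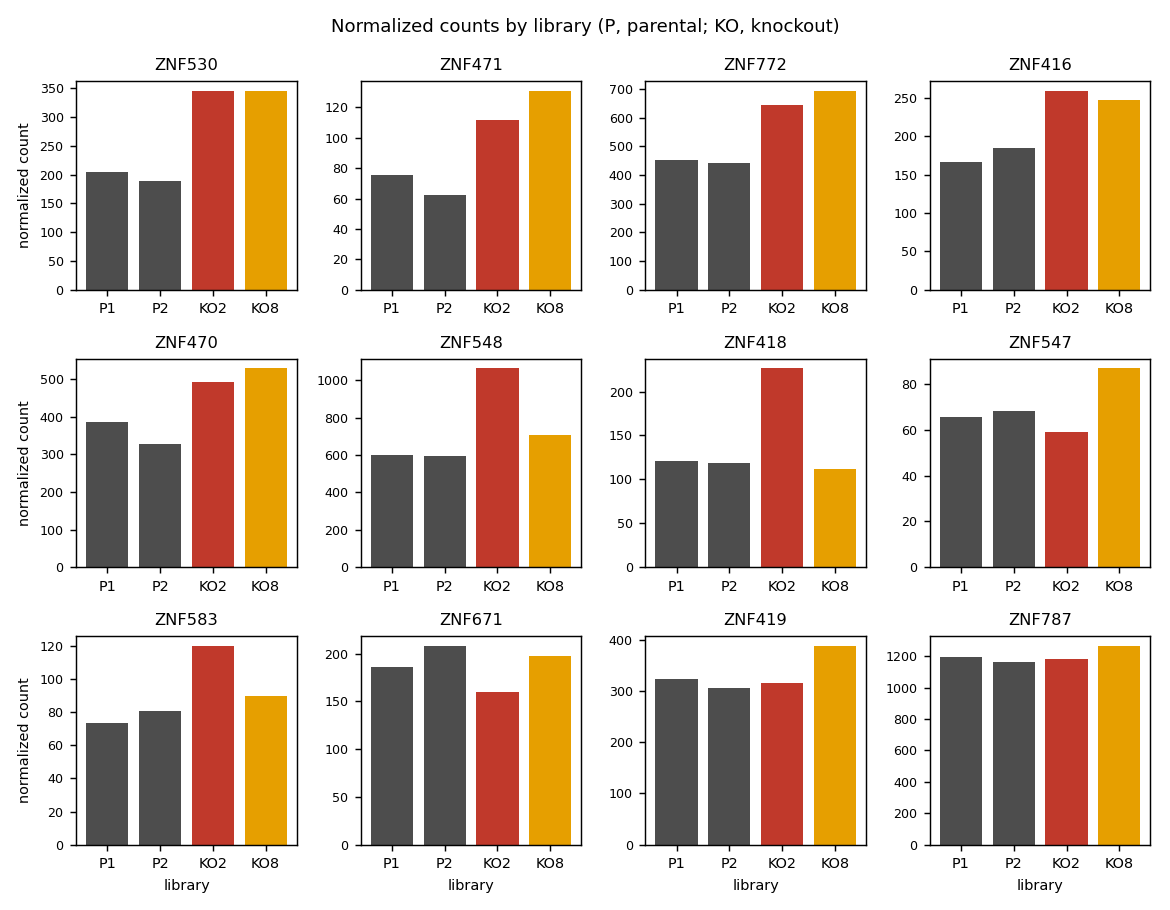
Normalized counts (y axes, from 0) in the 4 libraries for 12 members named in the text, 1 panel each; grey bars are parental libraries 1 and 2, red is knockout 2 and orange knockout 8. ZNF530 shows near-equal knockout bars, while ZNF418 is high only in knockout 2.

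In chromosomal order the 21 members with higher knockout values fell into 9 runs of neighbours, of which 5 were single genes (ZNF304, ZNF548, ZNF772, ZNF814 and ZNF417) and a pair held 2 members each (ZNF776 and ZNF586, ZNF256 and ZNF606). Whether this order departs from a random one was not tested. The measured members from ZNF773 to ZNF551 formed the longest run, of 8, all with both knockout libraries above both parental ones. It comprised ZNF773, ZNF549, ZNF550, ZNF416, ZNF530, ZNF134, ZNF211 and ZNF551. On the centromere side ZNF583, ZNF471, ZNF470 and ZNF71 formed a run of 4, with the near-silent ZNF667 between the first and second of them. Within the run of 8, ZNF134 had 609 and 618 against 770.4 and 895, ZNF551 had 511 and 541 against 709 and 728, and ZNF211 had 330.0 and 353 against 408 and 423. ZNF773, at the centromere end, had the smallest difference of the run, with 288 and 295 against 302 and 317. The members on the centromere side (6 measured) had medians of 0.29 and 0.23 in knockout 2 and 8, and those on the telomere side (27 measured) had 0.20 and 0.30.

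Several members of the run overlap their neighbours. ZNF549 and ZNF550 lie on opposite strands and share 473 bases of exon. ZNF549 had 339.9 and 317 against 433 and 463, and ZNF550 had 755 and 686 against 1037 and 983. ZNF416 shares 256 bases with ZIK1, a zinc finger gene on the opposite strand that is not among the members and had 282 and 329 against 538 and 423. The libraries are strand-specific, but the strand setting of the counting is not given in the sources used here, so reads of such pairs may not be told apart.

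The knockout libraries gave similar values for most members. The median absolute difference between knockout 2 and knockout 8 was 0.10 on the log2 scale over the 33 members, against 0.23 over all measured genes. Between the parental libraries it was 0.08 and 0.09. The ratios of both knockout libraries were known when the members were chosen, so their agreement is a description only. In 13 of the 33 members the knockout libraries differed by less than the parental ones did, as they did in 25.6% of all measured genes. Of the 33, 26 had both ratios above 0 (30.7% of all measured genes did), 2 had both below 0 and 5 had opposite signs. Both ratios share the parental libraries. With knockout 2 set against parental 1 only and knockout 8 against parental 2 only, 21 members were higher in both (27.8% of all measured genes were). With the parental libraries exchanged, 25 were (29.9%). The 21 members whose groups did not overlap meet both of these rules by definition, so neither count could be lower than 21. Of the 21 members whose groups did not overlap, 14 were higher in knockout 8 and 7 in knockout 2.

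A few members set the knockout libraries apart. ZNF418, reported as a transcriptional repressor, had 121 and 118 against 226 and 111. The knockout libraries differed by 1.02 on the log2 scale, the largest difference among the members, with knockout 8 below the parental pair. ZNF547 went the other way, with 65.8 and 68.4 against 58.9 and 86.9. ZNF583 had 73.5 and 80.7 against 120.0 and 89.9, with both knockout values above the parental ones.

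ZNF671, another gene known for methylation in tumours, had 186 and 208 against 160.0 and 197, so knockout 2 was below both and knockout 8 between them. ZNF419, whose splice variants give a minor histocompatibility antigen, had 323 and 305 against 315 and 388, with only knockout 8 above both. With 1 library on each side these differences have no replicate check.

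The members around ZNF587 share long stretches of transcript, and their counts are uncertain. Of the 50-base words in the GENCODE transcripts of ZNF417, 37.7% also occur in other genes; the share was 35.5% for ZNF587, 26.9% for ZNF814 and 16.8% for ZNF552. ZNF417 and ZNF587 are paralogs known for repression of HERV-K elements. Of the words of ZNF417, 30.5% occur in ZNF587 and 25.1% in ZNF814. ZNF587 and ZNF814 overlap by 2445 bases of exon on opposite strands. How reads that align to several genes were counted is not given in the sources used here.

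ZNF587 had 1856 and 1749 against 1613 and 1795, so the groups overlapped. ZNF814 had 701 and 725 against 734 and 796, and ZNF417 had 475 and 425 against 550.4 and 583, both without overlap. ZNF552 had 228 and 235 against 218 and 224, the single member below the parental pair in both. ZNF419 shares 12.7% of its words, 8.51% with its neighbour ZNF773. ZNF17 (12.6%) and ZNF749 (10.5%) share theirs mainly with unnamed annotated genes that overlap them on the same strand. ZNF17 had 315 and 267 against 304 and 305, and ZNF749 had 253 and 288 against 304 and 279, so in both the groups overlapped. The 26 measured members that share at most 10% of their words still share up to 9.88% (ZNF606), and ZNF773 is among them. Of these 26, 19 had both knockout libraries above both parental ones and 0 below. Their medians were larger, 0.36 in knockout 2 and 0.32 in knockout 8.

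ZNF787 and ZNF444 lie at the centromere end of the span. ZNF787 had 1192 and 1166 against 1182 and 1265. ZNF444, a SCAN-domain factor without a KRAB domain, had 1023 and 971 against 1021 and 968. ZNF543 had 169 and 174 against 166 and 175. In these 3 genes the knockout range overlapped the parental range. The other members with overlapping groups were ZNF264 (720.4 and 676 against 711 and 805) and those described above. ZNF304, a KRAB factor, had 612 and 600.0 against 646 and 657, without overlap but only 1.07-fold and 1.08-fold the parental mean.

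The other 5 members with both knockout libraries above both parental ones were ZNF71, ZNF776, ZNF586, ZNF256 and ZNF606. ZNF256, whose protein binds TRIM28, had 232 and 213 against 332 and 285, and ZNF606 had 132 and 125 against 170.5 and 162. ZNF776 had 781 and 803 against 908 and 990.3, ZNF586 had 478 and 475 against 538 and 549.9, and ZNF71 had 308 and 288 against 323 and 354. These 5 genes were 1.08-fold to 1.49-fold the parental mean.

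Ratios of members with and without the promoter word overlapped. Among measured members with an upstream sequence, 7 of 11 with ACTACATTA and 11 of 18 without it had both knockout libraries above both parental ones. The medians were 0.43 and 0.21 with the word and 0.11 and 0.25 without it, in knockout 2 and knockout 8. Members with the word ranged from -0.16 (ZNF587) to 0.92 (ZNF418) in knockout 2. These are descriptions of the same contrast, with no test.

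Other zinc finger genes within the same span, outside the members, were taken beside them. Of 14 such genes in the table, 10 were measured; 5 of them were above both parental libraries in both knockout libraries and 0 below, with medians of 0.39 and 0.35. ZNF835 had 24.1 and 31.6 against 61.0 and 56.6, and the pseudogene ZNF542P had 424 and 435 against 706 and 667. Of 10 genes in the span without a zinc finger symbol, 4 were measured, and 0 of them lay beyond the parental libraries in both; their medians were 0.22 in knockout 2 and -0.19 in knockout 8.

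Over the rest of chromosome 19, ZNF genes on the long arm outside the span (122 measured) had medians of 0.19 and 0.19. Of these, 64 were above both parental libraries in both and 5 below. This group takes in any ZNF gene of the same band beyond ZNF606, where the span ends. Its median absolute difference between the knockout libraries was 0.20, against 0.10 in the members. ZNF135, in this group, had ratios of 1.32 in knockout 2 and -3.61 in knockout 8. On the short arm (79 measured) the medians were -0.24 in knockout 2 and -0.04 in knockout 8, with 16 above and 24 below. On other chromosomes (246 measured) they were -0.01 and -0.0034, with 47 above and 55 below. Genes of chromosome 19 from 55 Mb to the telomere without a zinc finger symbol (35 measured, the 4 of the span among them) had medians of -0.05 and 0.0045, with 5 above and 8 below. None of these differences between groups of genes was tested.

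**Figure D4:**
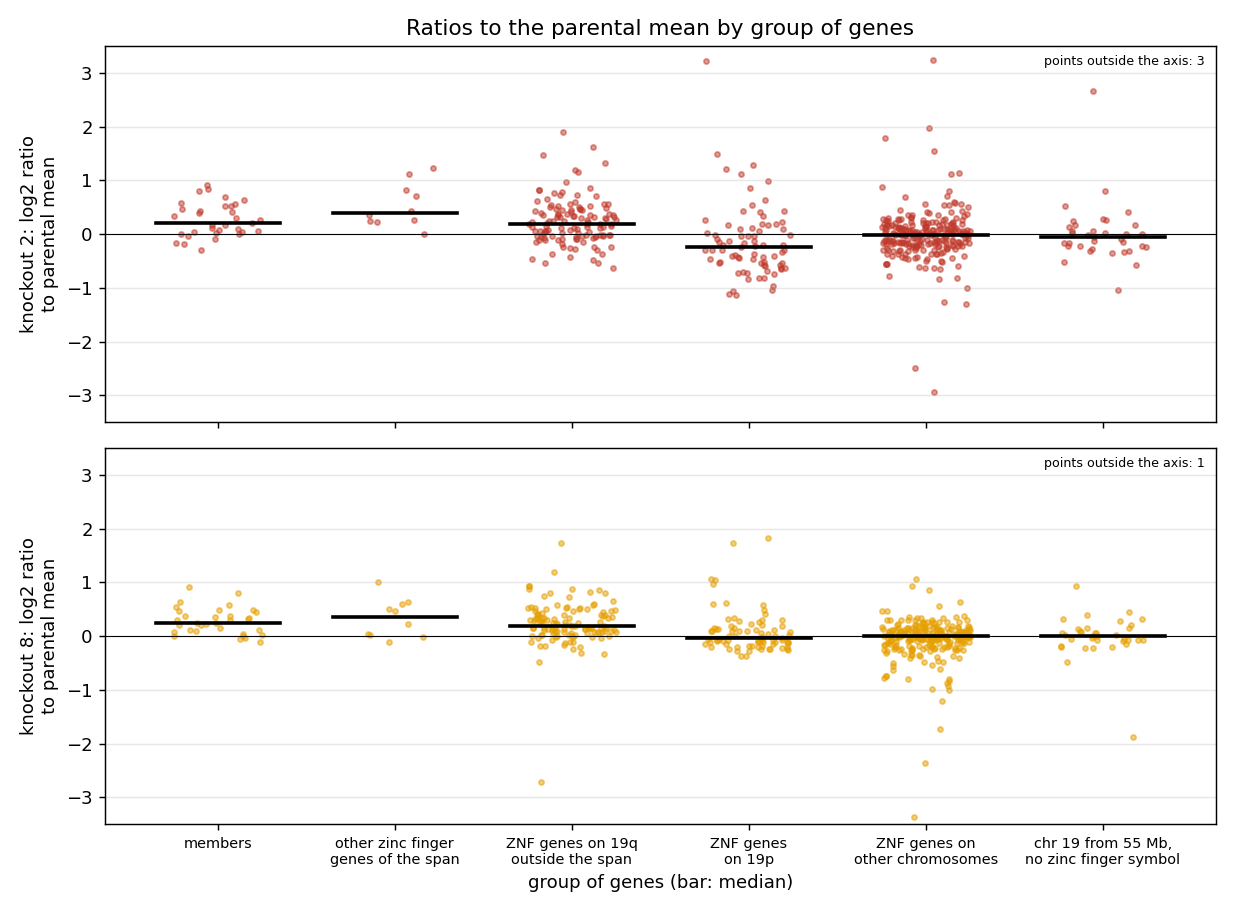
Log2 ratio to the parental mean (y axes) in knockout 2 (top) and knockout 8 (bottom) for measured genes of 6 groups (x axis); points are genes, spread sideways at random, and bars are medians. The members' medians (0.20 and 0.25) are near those of ZNF genes on 19q outside the span (0.19 and 0.19), and those of ZNF genes on other chromosomes are near 0; points beyond the axis are counted in each panel.

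Co-repressors that KRAB zinc finger proteins use were described from a list that also held heterochromatin and DNA methylation genes. TRIM28, which also lies near the end of 19q, had 15988 and 17045 normalized counts against 17092 and 16854. SETDB1, the methyltransferase it recruits, had 3787 and 3409 against 3170 and 2763, and DNMT1, the maintenance DNA methyltransferase, had 10196 and 11099 against 8875 and 9309. DAXX, a histone H3.3 chaperone, had 2701 and 2723 against 3251 and 3165. Of the 31 genes of the list 30 were measured, all but ZFP57, itself a KRAB zinc finger gene; limma called 0 of them, and 8 were above and 12 below both parental libraries in both knockout libraries, where 22.8% and 23.7% of all genes were. The median ratios of the list were 0.01 and -0.05. Its median absolute difference between the knockout libraries was 0.07, against 0.10 in the members.

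Recovered reads totalled 29230554 to 36331894 per library. The pair of knockout libraries differed more than the parental pair (chi-square per degree of freedom 61.6 against 5.57), and both pairs differed beyond sampling noise. Of 11 melanocytic and A375 markers 7 were measured, led by SOX10 at 30033 and 29587 against 28125 and 25662. Of these 7, 4 were below both parental libraries in both knockout libraries (SOX10, S100B, S100A1 and MITF) and 1, PMEL, was above. Over all measured genes 23.7% were below and 22.8% above in this way, the background also for the fibroblast and epithelial counts that follow. MITF, the master regulator of melanocytes, had 1645 and 1562 against 849 and 1050. The part of these differences in the members' values was not tested. MLANA and TYR were at 0 in all 4 libraries. The 8 fibroblast markers summed to 1353 and 1299 in the parental libraries, 2338 in knockout 2 and 1384 in knockout 8. Most of this was PDGFRA and PDGFRB. PDGFRA had 355 and 284 against 1033 and 368, while LUM had 92.1 and 100.9 against 31.6 and 165. Of 5 measured markers 2, PDGFRA and DCN, were above the parental pair in both knockout libraries and 0 below. The abundant fibroblast transcript COL3A1 was at 0 to 1.10. The part of the fibroblast markers in the members' values was not tested. The 6 blood markers summed to 97.6 and 125 in the parental libraries, 126 in knockout 2 and 273 in knockout 8, most of it LYZ, with HBB at 0. The 6 epithelial markers summed to 6804 to 7742, lower in both knockout libraries and mostly KRT18, with CDH1 at 0. Of 3 measured epithelial markers 2 were below the parental pair in both knockout libraries. KRT8 had 1147 and 1014 against 926 and 1208, so only knockout 2 was below. The 5 pluripotency markers summed to 378 to 517, mostly LIN28B, with LIN28A and DPPA4 at 0.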

How the data were processed

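The members and the lists were chosen with earlier results of these data known. Total RNA was DNase-treated, enriched for poly(A) RNA and made into strand-specific libraries, per the labels' protocols. The deposited table gives a normalized signal per gene and library: per the values, the authors divided read counts by 1 factor per library. The submitters' processing notes name STAR, Picard, HTSeq, DESeq2, deepTools and build hg38; their versions, annotation and strand setting were "not given in the sources used here". Values were whole multiples of 1 step per library within 0.001 (100% of values), which gave back whole reads for edgeR 4.0.16 and DESeq2 1.42.0; these were alternatives. The test reported first was limma 3.58.1 (trended variance) applied to log2(value + 1) over 15431 genes with at least 10 in at least 2 libraries, checked on simulated data, at an adjusted p of 0.05. The simulated data had the same spread in both groups, without the larger difference seen between the knockout libraries. The check therefore does not show what limma could find in these libraries. Each knockout value was set against the mean of the parental log2 values. All p-values measure the spread between these libraries only, and floors cover counting error only. The label of knockout columns 2 and 8 gives their group, not their replicate. Positions, exon lengths and 50-base words came from GENCODE 29, and promoters from RefSeq. ZNF arms were split at 26 Mb, and the comparisons by arm and from 55 Mb were chosen after seeing the data. Members described individually were those silent in parental and on in knockout, the 6 with the largest differences between knockout libraries, the 6 with the largest ratios without overlap, the 4 of highest parental level per kilobase, and those sharing over 10% of their 50-base words, which stood in for protein identity; others were named after their values were seen. The level of the edited gene is not reported here. Alternatives were the other tests, a pseudocount of 0.1, no filter, TMM scaling and leaving out libraries.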

Additional observations from a re-analysis of the deposited data

How the results depend on the processing

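All members' medians kept their sign under a pseudocount of 0.1, TMM scaling, no filter and either parental library alone. Without members that share over 10% of their words they were 0.363 in knockout 2 and 0.315 in knockout 8. The count of members above both parental libraries, 21 of 33, was also 21 under TMM scaling and without a filter. Without members that share over 10% of their words it was 19 of 26. It was 22 to 26 when a library was left out, and 21 or 25 with each knockout library set against a different parental one. Leaving out a library, splitting the reference or dropping the filter only loosens the rule, so those counts could not fall below 21. The count below both, 1 in all 4 libraries, was 0 without members that share over 10% of their words. It was 2 to 5 when a library was left out. With each knockout library set against a different parental one it was 3 or 2 (knockout 2 against parental 1 first). These looser rules could not give a count under 1. The silent-and-on count was 0 under all alternatives run for it. Over all genes DESeq2 called 398 and limma without a filter called 102, against 0 by limma; leaving out a library gave 0 to 5023. Among members DESeq2 called 1, and leaving out a library gave 0 to 13, with 10 called without knockout 2 (18.8% of all genes) and 13 without knockout 8 (32.6%), all higher; the lone knockout library is then assumed to vary like the parental pair. No paired analysis was possible because columns of the knockout group are numbered 2 and 8, unlike the labelled replicates. The shared-sequence, single-library and split-reference alternatives were chosen after seeing the data.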
